A study of Mus musculus with 24 samples.

Results

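The junction genes of the intestinal epithelium were followed on Illumina expression arrays of mouse small intestinal organoids after gamma-irradiation. The set held every probe whose gene symbol named a claudin (Cldn), a zonula occludens protein (Tjp), a numbered cadherin (Cdh), a desmoglein (Dsg) or a desmocollin (Dsc), together with occludin (Ocln), JAM-A (F11r), Marveld2, Marveld3, cingulin (Cgn), desmoplakin (Dsp), the plakophilins Pkp2 and Pkp3 and plakoglobin (Jup). These were 58 genes with 88 probes, of 18138 symbols and 25697 probes in the table used here, and Cgn had no probe in it. The members were chosen by gene symbol.

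Organoids are cultures in which intestinal stem cells form a closed epithelium with crypt-like buds. They were derived from C57BL/6 mice, grown in medium with EGF, noggin and R-spondin, and irradiated 3 days after reseeding. The 6 groups measured were organoids 24, 48 and 96 h after a dose of 6 Gy and non-irradiated control organoids at 24, 48 and 96 h, with 4 replicates each. The labels do not say how many mice were used or whether replicates were separate cultures, so the p-values reflect only how much these samples varied, and that variation may be technical.

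Epithelial cells are sealed to each other by tight junctions, in which claudins form the strands and set which ions pass, occludin and tricellulin strengthen the contacts, and zonula occludens proteins tie the strands to actin. Below them lie adherens junctions built on E-cadherin and desmosomes, in which desmogleins and desmocollins are tied to keratin filaments by plakoglobin, plakophilins and desmoplakin. In the small intestine claudin-2 and claudin-15 form paths for sodium and other cations, and claudin-3, claudin-4 and claudin-7 belong to the epithelial barrier.

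Between 9738 and 14751 probes were detected per array at a detection p under 0.05. Irradiated arrays had fewer on average at each time, with 11469 ± 1475 in irradiated organoids and 13012 ± 485 in controls at 24 h (SD, n = 4 each). At 48 h the means were 13660 ± 783 in irradiated organoids and 14071 ± 49 in controls. At 96 h they were 12118 ± 1251 in irradiated organoids and 12992 ± 895 in controls. The labels place the 8 samples of each time on 1 chip, with irradiated samples in one set of 4 positions and controls in the other, so array position and irradiation cannot be told apart, nor can chip and time. All 10 epithelial marker genes on the array were detected on every array. Their mean log2 signal lay between 10.97 and 11.10 in irradiated organoids and between 10.52 and 10.77 in controls at 24 h. At 48 h it lay between 10.99 and 11.08 in irradiated organoids and between 10.55 and 10.74 in controls. At 96 h it lay between 10.72 and 10.84 in irradiated organoids and between 10.46 and 10.70 in controls. The mean joins genes that differed: of the 9 that are not members, 4 were called higher and 1 lower at 24 h. At 48 h the counts were 3 and 0, and at 96 h 1 and 0. Of 12 mesenchymal markers 10 were detected on no array, among them Col1a1 and Pdgfra. Both of the others were tested: the intermediate filament gene Vim was higher at 24 h (log2 fold change 0.69, limma adjusted p = 0.0128) and at 48 h (0.87, adjusted p = 0.00408), and the smooth muscle actin gene Acta2 at 48 h (0.88, adjusted p = 0.0288). Of 10 endothelial markers 5 were detected on no array, Cdh5 among them, and up to 4 on any 1 array. Of the 4 tested, Tek, a receptor gene of endothelium, was higher at 24 h (0.92, adjusted p = 0.0247). Of 9 immune markers 5, Ptprc among them, were detected on no array, and up to 3 on any 1 array. The part of these differences in the results below was not tested. In bulk samples such as these, fewer cells of a type and less RNA per cell cannot be told apart.

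The detection of the member genes is given beside that of all genes on the array. A probe was tested where it was detected on at least 4 of the 24 arrays, which kept 34 probes of 27 member genes. Detection on all 24 arrays was found for 27 of the 88 member probes, against 8599 of all 25697 probes. By gene it was found for 20 of 58 members, against 6669 of 18138 symbols. Another 35 member probes were detected on no array and 19 on 1 to 3, against 7744 and 2897 of all probes. Whether the members differed from all probes in detection was not tested.

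Of 20 claudins on the array, 6 were detected on every array, namely Cldn2, Cldn3, Cldn7, Cldn12, Cldn15 and Cldn23. Cldn16, best known from the kidney tubule, was detected on 22 arrays, Cldn4 on 17, Cldn11 on 6, Cldn19 on 5 and Cldn9 on 4. Cldn1, an epidermal barrier claudin, was detected on 2 arrays, Cldn8 on 3, Cldn13 on 2 and Cldn5, the claudin of endothelium, on 1. Cldn6, Cldn10, Cldn14, Cldn17 and Cldn18 were detected on none. Ocln, F11r, Marveld2 (tricellulin), Marveld3, Tjp1 (ZO-1) and Tjp3 (ZO-3) were detected on all 24 arrays.

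Among 19 classical and related cadherins, Cdh1 (E-cadherin) and Cdh17 (LI-cadherin, an intestinal cadherin) were detected on all 24 arrays and Cdh24 on 9. Another 10 were detected on none, including Cdh2 (N-cadherin of neural and mesenchymal cells) and Cdh5 (VE-cadherin of endothelium). Of 8 desmosomal cadherins, Dsc2 and Dsg2, the pair of simple epithelia, were detected on every array. Dsg1c was detected on 17 arrays, Dsg1b on 3 and Dsg4 on 2, while Dsc1, Dsc3 and Dsg1a, known from stratified epithelia, were detected on none. The desmoglein-1 copies of the mouse are close in sequence, so the Dsg1c signal is uncertain as to its source. Dsp, Pkp2 and Pkp3 were detected on all 24 arrays. The Jup probe was detected on 1 array, of irradiated organoids at 48 h, so the plakoglobin level was not measured by it.

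**Figure D1:**
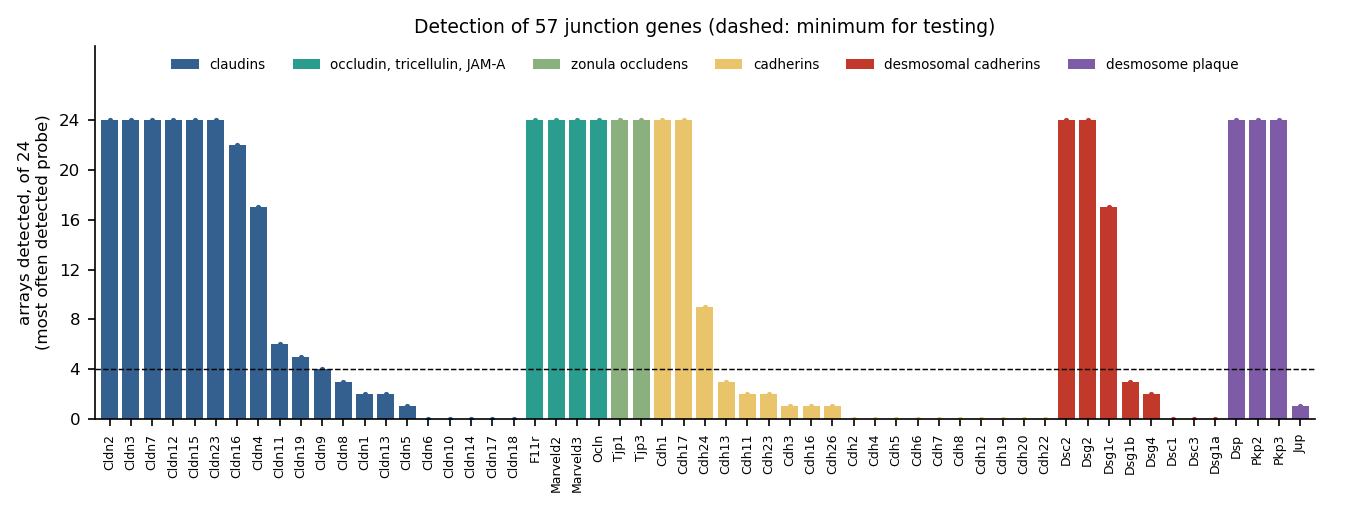
Number of the 24 arrays (vertical axis) on which the most often detected probe of each of 57 member genes had a detection p under 0.05, coloured by family, with the minimum of 4 arrays for testing as a dashed line. 19 genes reach 24, most of them claudins, tight junction membrane and scaffold proteins, or desmosomal proteins.

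At 24 h after irradiation, 4 claudin genes were higher and no member was lower. Cldn4 showed the clearest difference, Cldn23 rose 1.88-fold, Cldn3 rose 1.43-fold, and Cldn15 rose on 2 of its 3 probes. The call was made on 5 of the 34 member probes (14.7%), against 9.61% of all 15056 probes tested called higher, and on 0 member probes against 12.6% called lower. At an unadjusted p under 0.05 in limma, 7 member probes were higher and 0 lower. The median log2 fold change was 0.14 over the member probes and -0.07 over all probes tested. Irradiated values lay wholly above control values for 7 member probes, against 11.2% of all probes, and wholly below for 0, against 15.9%.

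The regions around the starts of the genes called at 24 h are shown for orientation, as 300 bases around the start in RefSeq's annotation of GRCm38.p6. Capitals mark the E-box CACCTG, the site of Snail-type repressors of junction genes, and the GC box GGGCGG, each on either strand. The Cldn4 region is chr5:134946885-134947184 (minus strand), the Cldn3 region is chr5:134985964-134986263 (plus strand) and the Cldn15 region is chr5:136967619-136967918 (plus strand).
Cldn4: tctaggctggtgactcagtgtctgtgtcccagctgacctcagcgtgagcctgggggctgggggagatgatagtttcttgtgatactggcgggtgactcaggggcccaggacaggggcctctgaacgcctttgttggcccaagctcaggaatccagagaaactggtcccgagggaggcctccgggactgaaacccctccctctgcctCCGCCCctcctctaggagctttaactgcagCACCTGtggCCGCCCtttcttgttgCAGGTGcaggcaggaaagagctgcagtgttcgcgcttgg
Cldn3: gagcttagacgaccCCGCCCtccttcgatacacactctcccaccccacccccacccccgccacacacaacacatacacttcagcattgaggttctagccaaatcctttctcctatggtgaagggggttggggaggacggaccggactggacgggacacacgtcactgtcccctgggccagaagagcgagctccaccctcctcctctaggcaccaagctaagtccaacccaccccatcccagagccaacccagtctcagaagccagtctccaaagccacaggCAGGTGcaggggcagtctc
Cldn15: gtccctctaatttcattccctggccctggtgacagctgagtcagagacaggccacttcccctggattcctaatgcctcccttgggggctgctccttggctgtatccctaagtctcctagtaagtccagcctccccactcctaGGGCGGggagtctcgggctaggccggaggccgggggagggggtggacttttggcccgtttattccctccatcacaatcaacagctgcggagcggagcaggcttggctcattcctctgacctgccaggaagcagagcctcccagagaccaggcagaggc
The table of promoters used here held 32 of the 58 member genes, and Cldn23 was not among them. The Cldn4 region holds 2 E-boxes and 2 GC boxes, the Cldn3 region 1 of each, and the Cldn15 region 1 GC box and 0 E-boxes. Among 32851 promoters of the same length, 20.2% hold the E-box and 35.7% the GC box. TATAAA, present in 13.6% of promoters, the grainyhead site AACCNGTT (2.09%) and the p53 motif (8.36%) were searched on both strands too, and none of the 3 regions holds any of them. These matches are descriptions of letters in a window. Cldn4 and Cldn3 are direct neighbours, with 0 annotated genes between them.

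Cldn4 encodes claudin-4, a barrier claudin of many epithelia. Its log2 signal at 24 h was 6.22, 6.32, 6.25 and 6.14 in irradiated organoids, against 4.86, 5.04, 4.69 and 4.84 in controls (probe ILMN_1223949). All irradiated values lay above all control values. The probe was detected on 4 of 4 irradiated arrays and on 0 of 4 control arrays. The control value is therefore only an upper limit, and Cldn4 was at least 1.99-fold higher in irradiated organoids. For such bounds, the mean of the bright group was set against the lowest detected signal of each array of the dim group. The bounds themselves were not tested. The difference of the measured means was 1.38 on the log2 scale (limma adjusted p = 4.33e-06). It was 0.80 with an offset of 50, and 0.64 in the authors' deposited processed values, which hold no background correction. Median scaling of the arrays in place of quantile normalization gave 1.14 (adjusted p = 6.86e-05).

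Cldn23 encodes claudin-23, a less studied claudin of the intestine and other tissues. Its log2 signal at 24 h was 8.58, 8.31, 8.57 and 8.86 in irradiated organoids, against 7.40, 7.75, 7.79 and 7.74 in controls (probe ILMN_2758545). The groups did not overlap. The means were 8.58 ± 0.23 in irradiated organoids and 7.67 ± 0.18 in controls (SD, n = 4 each), a log2 fold change of 0.91 with a standard error of 0.17 (limma adjusted p = 0.000433).

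Cldn3 encodes claudin-3, a barrier claudin. It had log2 signals of 10.60, 10.08, 10.55 and 10.50 in irradiated organoids, against 9.73, 9.87, 10.02 and 10.07 in controls (probe ILMN_2634167). The lowest irradiated value, of replicate 2, lay just above the highest control value. The means were 10.43 ± 0.24 in irradiated organoids and 9.92 ± 0.15 in controls, a log2 fold change of 0.51 with a standard error of 0.13 (limma adjusted p = 0.00806).

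Cldn15 encodes the cation-pore claudin of the small intestine and had 3 tested probes. The brightest (ILMN_2793817) gave log2 signals of 11.59, 11.43, 11.53 and 11.67 in irradiated organoids, against 11.33, 11.24, 11.37 and 11.59 in controls at 24 h, with overlap and a log2 fold change of 0.17 (limma adjusted p = 0.369). The second (ILMN_2674906) gave 9.07, 8.53, 9.01 and 9.11 in irradiated organoids, against 8.32, 8.28, 8.60 and 8.45 in controls. It was higher by 0.52 on the log2 scale (adjusted p = 0.011), with the lowest irradiated value below the highest control. The third (ILMN_1245622) gave 7.94, 8.11, 8.10 and 7.89 in irradiated organoids, against 7.39, 7.79, 7.55 and 7.58 in controls, without overlap, and was higher by 0.44 (adjusted p = 0.0425). The probes of Cldn15 thus differed in call, and that of the third was lost (adjusted p between 0.0512 and 0.129) on leaving out any 1 of the 24 h arrays except replicate 2 of the controls. It was lost too with the number of detected probes per array as a covariate (0.35, adjusted p = 0.186) and without the detection filter (0.44, adjusted p = 0.0557).

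Quantile normalization gives every array the same distribution of signals. Median scaling, which only aligns the array medians, moved the median log2 fold change of all probes at 24 h to -0.44, with 3.69% of all probes called higher and 45% lower. Under it, 2 member probes were called higher (Cldn4 and Cldn19) and 12 lower (3 probes each of Dsg2 and Pkp2, 2 of Tjp3, and those of Cldn7, Dsc2, Dsp and Ocln), against 5 and 0 with quantile normalization. The log2 fold change was then 0.32 for Cldn23 (limma adjusted p = 0.181), 0.05 for Cldn3 (0.843), -0.066 for the second Cldn15 probe (0.815) and -0.17 for the third (0.46). Relative to the median of all probes, 25 of the 34 member probes lay above it with quantile normalization, 24 with cyclic loess and 22 with median scaling. Without the 5 arrays with the fewest detected probes, which include irradiated replicates 3 and 4 at 24 h, Cldn4 and Cldn23 stayed called, and Cldn3 (0.42, adjusted p = 0.14) and the 2 Cldn15 probes (0.39, adjusted p = 0.171, and 0.45, adjusted p = 0.0889) did not.

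**Figure D2:**
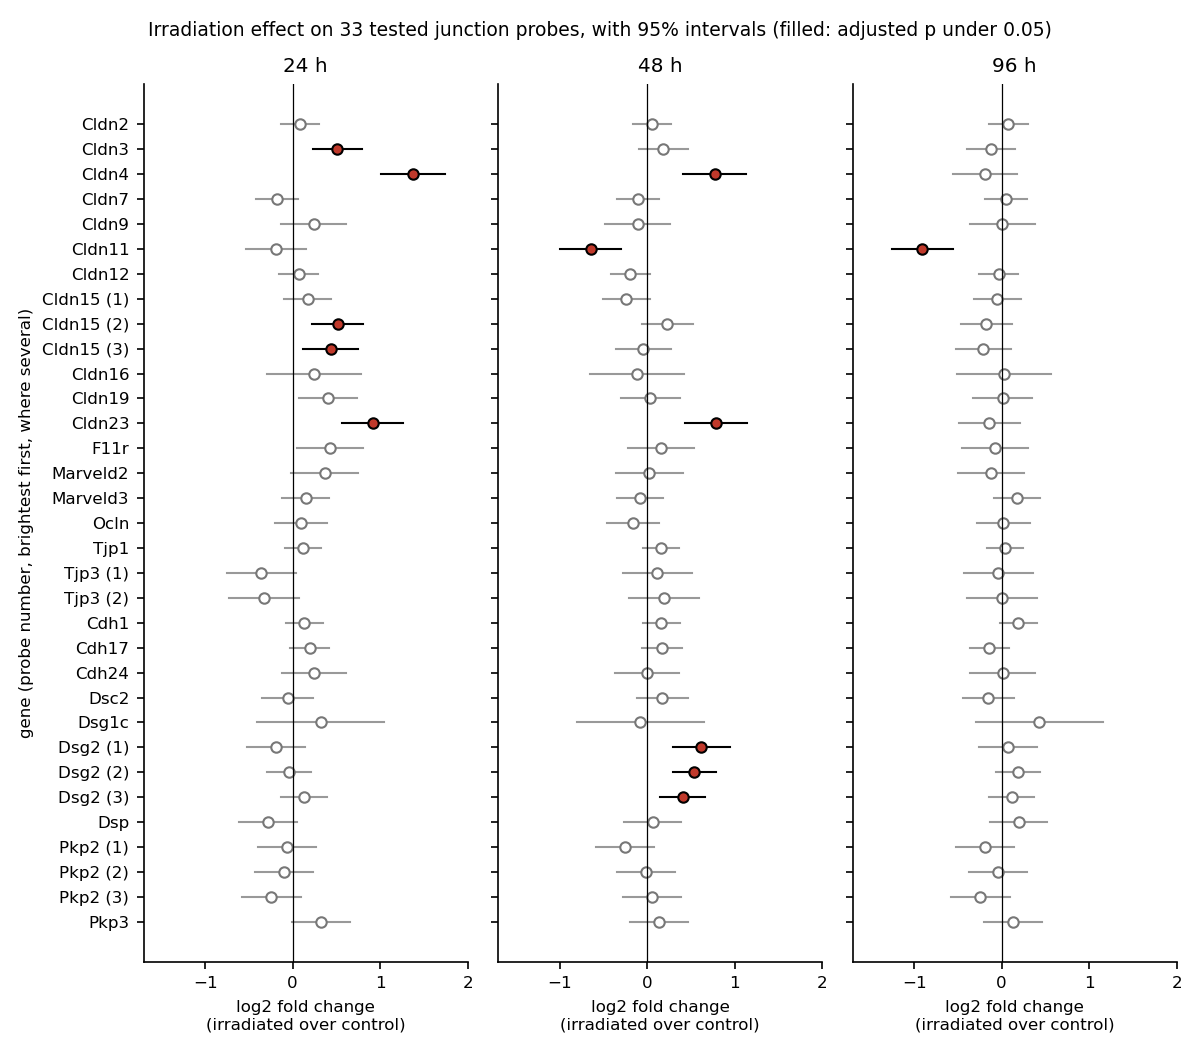
Log2 fold change of irradiated over control organoids (horizontal axis) with its 95% interval for 33 tested member probes at 24, 48 and 96 h, with n = 4 per group and filled points for an adjusted p under 0.05. Filled points lie to the right for Cldn3, Cldn4, Cldn23 and 2 Cldn15 probes at 24 h and for Cldn4, Cldn23 and 3 Dsg2 probes at 48 h, and to the left for Cldn11 at 48 and 96 h, and the Cldn4 point at 24 h rests on controls that were not detected.

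At 48 h, Cldn4 and Cldn23 were higher again, the desmosomal cadherin Dsg2 rose on all 3 of its probes, and Cldn11 was lower. The 5 member probes called higher (14.7%) compare with 6.28% of all probes, and the 1 called lower (2.94%) with 5.01%. The median log2 fold change was 0.06 over the member probes and -0.03 over all probes. The groups did not overlap for these 6 probes, 5 of them with irradiated values above, against 9.05% of all probes, and 1 with irradiated values below, against 10.1%.

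Cldn4 was now detected on all 8 arrays. Its log2 signal was 6.47, 6.35, 6.26 and 6.58 in irradiated organoids, against 5.87, 5.53, 5.74 and 5.44 in controls. The groups were separate and differed 1.71-fold (log2 fold change 0.77, standard error 0.18, limma adjusted p = 0.00453). The log2 fold change was 0.38 in the authors' deposited processed values (adjusted p = 0.00543 from the same limma model).

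Cldn23 had log2 signals of 8.39, 8.42, 8.16 and 8.54 in irradiated organoids, against 7.36, 7.54, 7.53 and 7.92 in controls at 48 h. The irradiated arrays were all higher, by 0.79 on the log2 scale with a standard error of 0.17 (limma adjusted p = 0.00292), or 1.73-fold. With median scaling the difference was 0.56 (adjusted p = 0.0674).

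Cldn3 and Cldn15, called at 24 h, did not pass the test at the later times. Cldn3 gave log2 signals of 9.69, 9.91, 9.63 and 9.85 in irradiated organoids, against 9.42, 9.80, 9.39 and 9.73 in controls at 48 h. At 96 h Cldn3 gave 9.83, 9.96, 9.90 and 9.87 in irradiated organoids, against 10.08, 9.71, 10.26 and 9.99 in controls. Its groups overlapped at both times, with log2 fold changes of 0.18 (95% interval -0.09 to 0.46) and -0.12 (-0.40 to 0.16). The 3 Cldn15 probes had log2 fold changes of -0.24, 0.23 and -0.05 at 48 h and of -0.05, -0.17 and -0.21 at 96 h, and their groups overlapped at both times. For the second probe the log2 signal was 8.05, 7.93, 7.66 and 7.76 in irradiated organoids, against 7.59, 7.71, 7.74 and 7.44 in controls at 48 h. At 96 h the second probe gave 8.16, 7.58, 8.04 and 8.04 in irradiated organoids, against 8.19, 8.17, 8.23 and 7.93 in controls. In both groups its values lay lower at 48 h than at 24 h, a difference that is also one between chips.

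Dsg2 encodes desmoglein-2, the desmosomal cadherin of simple epithelia. Its brightest probe (ILMN_1215475) gave log2 signals of 8.58, 8.64, 8.71 and 8.51 in irradiated organoids, against 7.74, 8.21, 7.92 and 8.08 in controls at 48 h. Every irradiated value was higher, by 0.62 on the log2 scale (limma adjusted p = 0.0113), or 1.54-fold. The second probe (ILMN_2955047) gave 8.20, 8.28, 8.23 and 8.22 in irradiated organoids, against 7.87, 7.71, 7.45 and 7.74 in controls, a difference of 0.54 (adjusted p = 0.00407). The third (ILMN_1242566) gave 8.25, 8.11, 8.07 and 7.97 in irradiated organoids, against 7.70, 7.67, 7.77 and 7.62 in controls, a difference of 0.41 (adjusted p = 0.0342). The 3 probes read the same gene in the same RNA and are not independent samples. At 24 h the brightest gave 8.06, 8.0, 7.70 and 7.71 in irradiated organoids, against 8.38, 8.0, 8.12 and 7.74 in controls, and at 96 h 7.95, 7.42, 7.84 and 8.0 in irradiated organoids, against 7.59, 8.11, 7.45 and 7.76 in controls. The groups overlapped at both of these times. The 3 probes had log2 fold changes of -0.19, -0.04 and 0.13 at 24 h and of 0.07, 0.18 and 0.12 at 96 h, none of them called. Without replicate 1 of the 48 h controls the brightest probe gave 0.54 (adjusted p = 0.0516) and 3 member probes were called higher at 48 h, and the third probe lost its call (adjusted p between 0.0508 and 0.1) on leaving out any 1 array of that time except irradiated replicate 4. With median scaling the 3 probes gave 0.37, 0.32 and 0.19, none called (adjusted p = 0.25, 0.303 and 0.531).

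Cldn11 encodes the claudin of myelin and of Sertoli cell junctions. At 48 h its log2 signal was 4.50, 4.63, 4.58 and 4.55 in irradiated organoids, against 5.40, 5.40, 4.94 and 5.11 in controls (probe ILMN_1246139). At 96 h it was 4.94, 4.91, 4.57 and 4.68 in irradiated organoids, against 6.17, 5.57, 5.91 and 5.07 in controls. The groups were separate at both times, but the probe was detected on 0 of 4 irradiated arrays and on 3 of 4 control arrays at each. Cldn11 was therefore at least 1.06-fold lower at 48 h and at least 1.14-fold lower at 96 h. The measured means differed by -0.64 at 48 h (limma adjusted p = 0.0122) and by -0.91 at 96 h (adjusted p = 0.00143) on the log2 scale. The probe met the filter of 4 arrays through control arrays alone, the group where it was brighter. Its calls are therefore descriptive and give no separate support for a fall. At 24 h it was detected on none of the 8 arrays, with 4.48, 4.75, 4.57 and 4.54 in irradiated organoids, against 4.63, 4.84, 4.90 and 4.73 in controls. When only the 96 h arrays were fitted, the difference at 96 h was not called (adjusted p = 0.112). Of 4 tested immune markers, 1 was called lower at each of these times, namely Laptm5 (log2 fold change -0.92 at 48 h and -0.91 at 96 h). The median over the 4 was -0.09 at 48 h and -0.07 at 96 h. The part of immune cells in the Cldn11 signal was not tested.

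**Figure D3:**
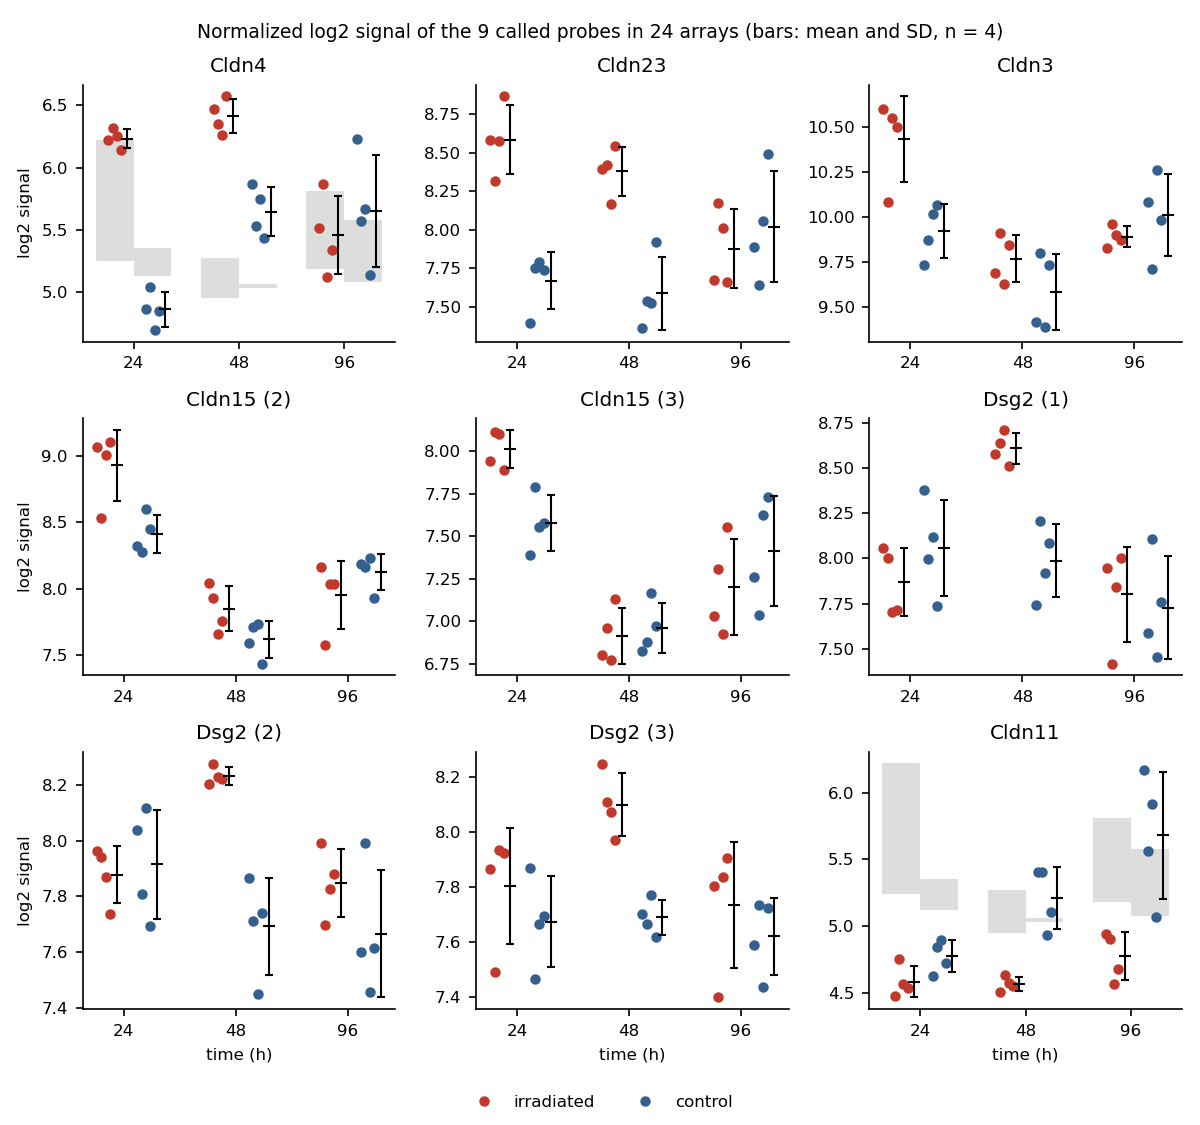
Normalized log2 signal of the 9 probes called at any time (vertical axes differ) in each array by time, with irradiated organoids in red at the left, controls in blue at the right, and mean and SD as bars (n = 4). Grey bands span the lowest detected signals of the arrays of a group: the Cldn4 controls at 24 h and the irradiated Cldn11 values lie below theirs.

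At 96 h no member was higher and Cldn11 alone was lower. The 0 member probes called higher compare with 1.45% of all probes, and the 1 called lower (2.94%) with 2.8%. At an unadjusted p under 0.05 in limma the same counts of 0 and 1 were found. The median log2 fold change was 0.00 over the member probes and 0.00 over all probes. Irradiated values lay above control values without overlap for 0 member probes, against 2.85% of all probes, and below for Cldn11, against 4.14%. Cldn4 had log2 signals of 5.51, 5.86, 5.12 and 5.34 in irradiated organoids, against 6.23, 5.57, 5.67 and 5.13 in controls, detected on 2 irradiated and 3 control arrays. Cldn23 had 7.67, 8.17, 8.01 and 7.66 in irradiated organoids, against 7.89, 7.64, 8.06 and 8.49 in controls. For both genes the groups overlapped, with log2 fold changes of -0.19 for Cldn4 (95% interval -0.55 to 0.17) and -0.14 for Cldn23 (-0.49 to 0.21).

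The irradiation effects were also compared between times, as the difference of the log2 fold changes in the same limma model. The effect was smaller at 96 h than at 24 h for 4 member probes, namely Cldn4 (-1.57, adjusted p = 0.000267), Cldn23 (-1.05, adjusted p = 0.00672), the second Cldn15 probe (-0.69, adjusted p = 0.029) and Cldn3 (-0.63, adjusted p = 0.0352). These 4 (11.8%) compare with 5.55% of all probes called lower in this contrast, and 0 were called higher, against 4.4%. The size for Cldn4 rests on control values below detection at 24 h and was -0.73 in the authors' deposited processed values (adjusted p = 0.000413). Between 48 and 96 h the effect fell for 2 member probes (5.88%, against 2.15% of all probes) and rose for 0 (against 0.565%), the 2 being Cldn4 (-0.96, adjusted p = 0.0365) and Cldn23 (-0.93, adjusted p = 0.0372). Between 24 and 48 h 0 member probes differed, against 0.757% of all probes, and 2 were higher and 3 lower at an unadjusted p under 0.05. The brightest Dsg2 probe had a difference of 0.81 (unadjusted p = 0.00152, adjusted p = 0.11). Leaving out any of 10 of the 16 arrays ended the 48 to 96 h call of Cldn4 and any of 11 that of Cldn23 (adjusted p up to 0.088 and 0.0871). Leaving out any of 7 or 11 of the 16 arrays ended the 24 to 96 h call of the Cldn15 probe or of Cldn3 (adjusted p up to 0.0631 and 0.0829), and leaving out any 1 array did not end those of Cldn4 and Cldn23. The 24 to 96 h call of Cldn23 was lost with median scaling (-0.71, adjusted p = 0.134). It was lost too without the 5 arrays with the fewest detected probes (-0.72, adjusted p = 0.148).

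The genes that carry the junctions' backbone did not pass the test at any time with quantile normalization. Their intervals cover the variation among arrays under that normalization only. With median scaling at 24 h, Ocln (-0.50), Dsp (-0.82) and Cldn7 (-0.55) lay below these intervals and were called lower. Cdh1 (-0.15), Cdh17 (-0.39), Tjp1 (-0.42) and F11r (-0.10) also lay below theirs and were not called. Cdh1, the E-cadherin of adherens junctions, had log2 signals of 12.27, 12.32, 12.42 and 12.43 in irradiated organoids, against 12.22, 12.35, 12.16 and 12.18 in controls at 24 h. The groups overlapped, and its log2 fold change was 0.13 at 24 h (95% interval -0.08 to 0.35), 0.16 at 48 h (-0.05 to 0.37) and 0.19 at 96 h (-0.02 to 0.40). At 48 h it had 12.62, 12.61, 12.63 and 12.60 in irradiated organoids, against 12.36, 12.53, 12.66 and 12.28 in controls, and at 96 h 12.71, 12.77, 12.56 and 12.36 in irradiated organoids, against 12.43, 12.47, 12.26 and 12.48 in controls. The irradiated arrays at 48 h lay close together inside the range of the controls. Cdh17, the LI-cadherin of enterocytes, gave 8.89, 8.70, 8.87 and 8.96 in irradiated organoids, against 8.67, 8.53, 8.79 and 8.65 in controls at 24 h. It gave 8.55, 8.25, 8.71 and 8.30 in irradiated organoids, against 8.22, 8.21, 8.45 and 8.26 in controls at 48 h, and 8.38, 8.58, 8.31 and 8.56 in irradiated organoids, against 8.50, 8.56, 8.65 and 8.67 in controls at 96 h. Cdh17 had log2 fold changes of 0.19 (95% interval -0.03 to 0.42), 0.17 (-0.06 to 0.39) and -0.14 (-0.36 to 0.09) at 24, 48 and 96 h, and the groups overlapped at each time.

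Tjp1, the scaffold ZO-1, had log2 signals of 9.41, 9.24, 9.22 and 9.51 in irradiated organoids, against 9.23, 9.31, 9.12 and 9.24 in controls at 24 h. Its log2 fold changes were 0.12 (95% interval -0.09 to 0.33), 0.16 (-0.05 to 0.37) and 0.04 (-0.17 to 0.25) over the 3 times, with overlap at each. The Tjp1 signal was 9.58, 9.69, 9.67 and 9.55 in irradiated organoids, against 9.59, 9.35, 9.48 and 9.43 in controls at 48 h, and 9.19, 9.60, 9.53 and 9.33 in irradiated organoids, against 9.43, 9.29, 9.34 and 9.43 in controls at 96 h. The 2 probes of Tjp3 (ZO-3) had log2 fold changes of -0.36 and -0.33 at 24 h, with intervals of -0.75 to 0.04 and -0.72 to 0.07.

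Ocln, the occludin gene, had log2 signals of 8.38, 8.70, 8.51 and 8.51 in irradiated organoids, against 8.30, 8.48, 8.65 and 8.28 in controls at 24 h. The groups overlapped, with log2 fold changes of 0.10 (95% interval -0.21 to 0.40), -0.16 (-0.46 to 0.14) and 0.02 (-0.28 to 0.32) over the 3 times. Ocln gave 8.31, 8.48, 8.38 and 8.46 in irradiated organoids, against 8.43, 8.59, 8.52 and 8.73 in controls at 48 h, and 8.35, 8.73, 8.61 and 8.61 in irradiated organoids, against 8.28, 8.16, 8.90 and 8.87 in controls at 96 h. The 96 h controls were the most spread of these groups. F11r, which encodes the adhesion molecule JAM-A, had 9.27, 9.12, 9.51 and 9.39 in irradiated organoids, against 8.81, 8.88, 8.93 and 8.97 in controls at 24 h. Its groups were separate, and the log2 fold change of 0.43 (95% interval 0.05 to 0.80) did not pass the adjusted threshold (limma adjusted p = 0.0959). With cyclic loess in place of quantile normalization it did (0.53, adjusted p = 0.041), and 6 member probes were then called higher at 24 h. In the authors' deposited processed values F11r was not called (0.38, adjusted p = 0.0676), and median scaling turned its sign (-0.10, adjusted p = 0.726). F11r gave 9.45, 9.26, 8.90 and 9.33 in irradiated organoids, against 9.30, 9.16, 9.31 and 8.53 in controls at 48 h, and 8.90, 8.70, 8.80 and 8.36 in irradiated organoids, against 9.18, 9.0, 8.49 and 8.40 in controls at 96 h. Its groups overlapped at these times, with log2 fold changes of 0.16 and -0.08. Marveld2, the tricellulin of multi-cell corners, had 0.36, 0.02 and -0.12 over the times, and Marveld3 had 0.15, -0.09 and 0.18.

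Cldn7, a basolateral claudin of the gut, had log2 fold changes of -0.18 (95% interval -0.42 to 0.06), -0.11 (-0.34 to 0.13) and 0.05 (-0.19 to 0.28). Its log2 signal was 11.13, 10.93, 11.14 and 10.93 in irradiated organoids, against 11.16, 11.10, 11.35 and 11.24 in controls at 24 h. At 48 h it averaged 10.98 ± 0.19 in irradiated organoids and 11.09 ± 0.06 in controls (SD, n = 4 each), and it was 11.22, 11.03, 11.39 and 11.39 in irradiated organoids, against 11.36, 11.34, 11.12 and 11.02 in controls at 96 h. The groups overlapped at all 3 times. Cldn2, the crypt claudin that forms a sodium and water path, had differences between 0.06 and 0.08 at the 3 times, the widest interval reaching 0.30. Cldn12 had 0.07, -0.19 and -0.03, and Cldn9, Cldn16 and Cldn19 had differences between -0.11 and 0.40, none of them called.

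Dsp, whose product desmoplakin ties desmosomes to keratin, had log2 signals of 7.21, 7.11, 6.83 and 6.75 in irradiated organoids, against 7.38, 7.10, 7.24 and 7.31 in controls at 24 h. The groups overlapped, and the log2 fold changes were -0.28 (95% interval -0.61 to 0.04), 0.06 (-0.26 to 0.39) and 0.19 (-0.13 to 0.52). Dsp gave 7.56, 7.49, 7.54 and 7.18 in irradiated organoids, against 7.47, 7.38, 7.61 and 7.06 in controls at 48 h, and 7.21, 7.26, 6.59 and 7.03 in irradiated organoids, against 7.01, 6.96, 6.46 and 6.89 in controls at 96 h, also with overlap. Dsc2, the desmocollin partner of Dsg2, had -0.06, 0.17 and -0.15 at the 3 times, none of them called, and whether it differed from Dsg2 was not tested. Pkp3 had 9.62, 9.50, 9.55 and 9.58 in irradiated organoids, against 9.20, 9.27, 9.19 and 9.28 in controls at 24 h, without overlap, and its log2 fold change of 0.33 was not called (limma adjusted p = 0.152). The 3 Pkp2 probes ranged from -0.26 to 0.06 over all times, Dsg1c from -0.08 to 0.43 and Cdh24 from 0.00 to 0.24.

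**Figure D4:**
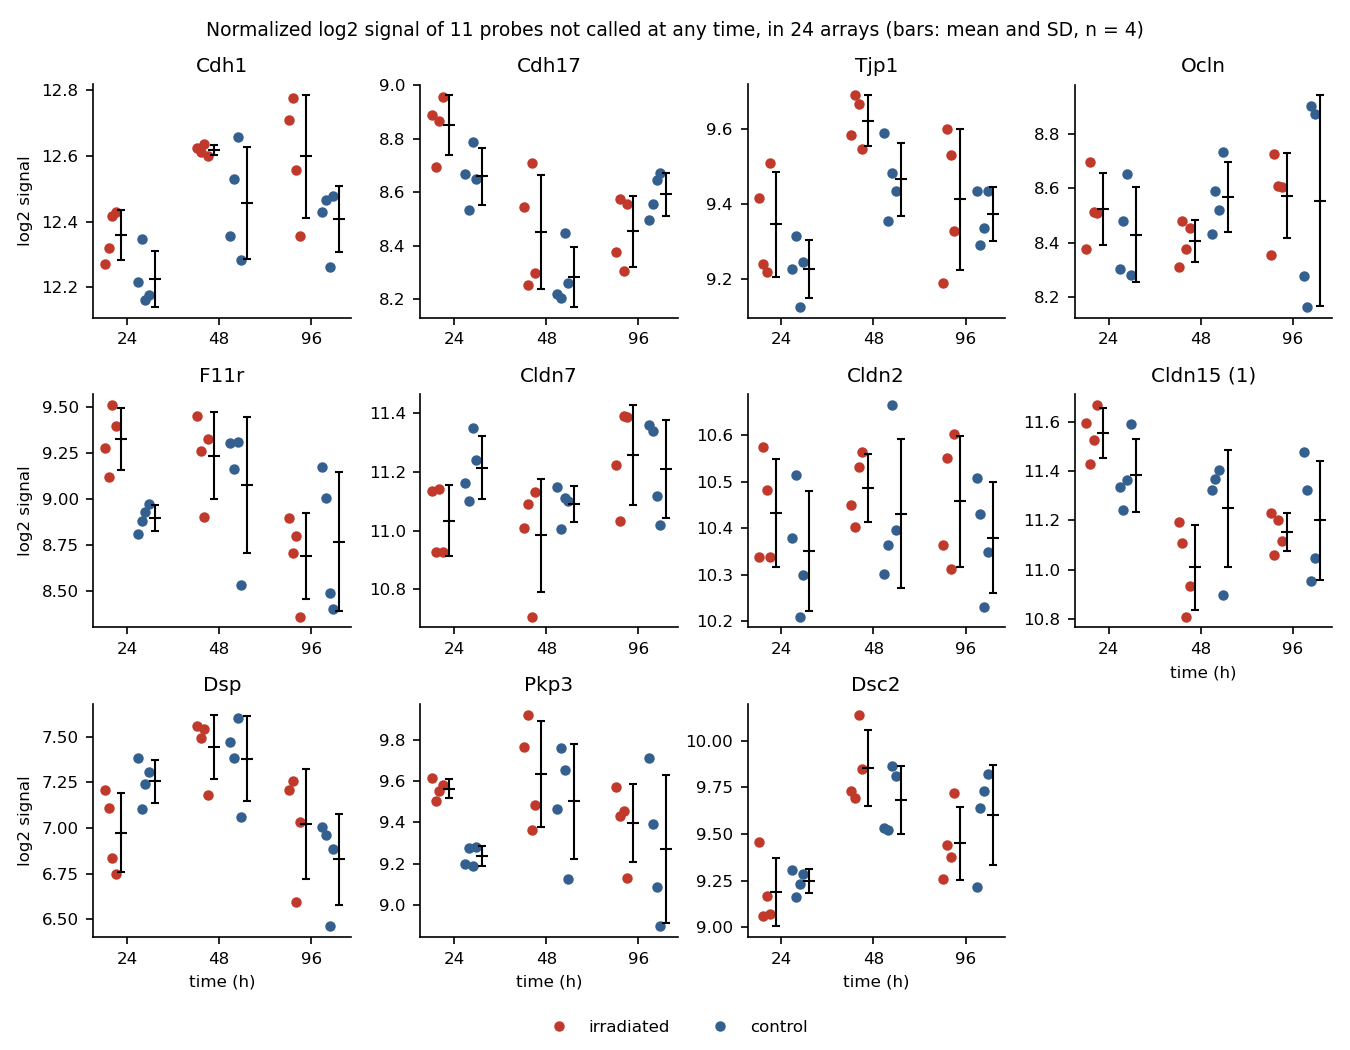
Normalized log2 signal of 11 member probes that were not called at any time (vertical axes differ), in each array by time, with irradiated organoids in red at the left, controls in blue at the right, and mean and SD as bars (n = 4). Values of the groups overlap in all panels at 48 and 96 h, and at 24 h they are separate for F11r and Pkp3.

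**Figure D5:**
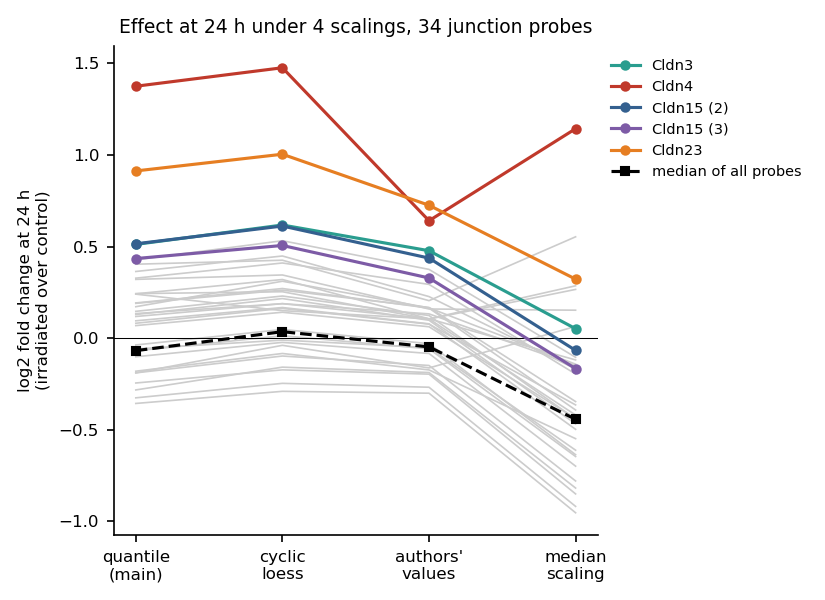
Log2 fold change of irradiated over control organoids at 24 h (vertical axis) for the 34 tested member probes under 4 scalings of the arrays (horizontal axis), with the 5 probes called under quantile normalization in colour, the others in grey and the median of all probes dashed. Cldn4 lies above the other called probes under quantile normalization, cyclic loess and median scaling, and Cldn23 lies slightly above it in the authors' values; median scaling moves the median of all probes to -0.44.

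Other genes of the same structures were read as lists, with the brightest tested probe for each gene. Among all 15056 probes tested, the shares called higher were 9.61%, 6.28% and 1.45% in order of time. Those called lower were 12.6%, 5.01% and 2.8%. Whether the counts of any list differed from these shares was not tested. Of 25 tested genes of tight junction scaffold and polarity, 4 were higher and 0 lower at 24 h, 3 and 0 at 48 h, and none was called at 96 h. Ildr1, an angulin that recruits tricellulin to multi-cell corners, was higher by 0.82 at 24 h (1 of 3 probes called) and by 1.31 at 48 h (3 of 3 probes), which was a 2.48-fold difference at 48 h (limma adjusted p = 0.000522). The immunoglobulin-type adhesion gene Jam4 was higher by 0.44 and 0.48 at 24 and 48 h. Tjap1, whose product sits at tight junctions, was higher by 0.46 at 24 h on 1 of 2 probes, and Mpp5 (the polarity scaffold Pals1) by 0.36 at 48 h. The list's median log2 fold changes were 0.17, 0.09 and 0.01 at 24, 48 and 96 h, beside -0.07, -0.03 and 0.00 over all probes.

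Of 14 tested adherens junction partners, 0 were higher and 1 lower at 24 h, 0 and 2 at 48 h, and 0 and 0 at 96 h. Ctnnal1, which encodes an alpha-catenin-like protein, fell by 0.42 at 24 h and by 0.47 at 48 h, and Ssx2ip, an afadin-binding protein gene, fell by 0.65 at 48 h. Ctnnb1, the beta-catenin that links E-cadherin to the cytoskeleton, had 0.22, 0.13 and 0.02 and was not called. Of 8 desmosome and envelope partners, 2 were higher and 1 lower at 24 and at 48 h, and 1 was higher at 96 h. The intermediate filament gene Krt20, a keratin of differentiated intestinal cells, rose by 1.36, 1.23 and 0.74 at 24, 48 and 96 h (adjusted p = 1.5e-09, 9.65e-09 and 2.34e-05). Perp, a desmosome component and p53 target, rose by 0.35 and 0.32 at 24 and 48 h, and Pkp1 fell by 0.65 and 0.64.

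Of 15 repressors and regulators of junction genes, 1 was higher and 4 lower at 24 h, 1 and 1 at 48 h, and 1 and 0 at 96 h. Spint1, an inhibitor of membrane serine proteases in epithelia, rose by 0.62, 0.50 and 0.42 at the 3 times. The epithelial transcription factor genes Grhl2, Cdx1 and Elf3 fell by 0.50, 0.60 and 0.67 at 24 h, and Grhl2 by 0.34 at 48 h, the call for Cdx1 resting on 1 of 2 probes and that for Elf3 on 1 of 3. Snai1, the E-box repressor, had 0.62 at 24 h with a limma adjusted p of 0.176. Of 10 adhesion partners and brush border cadherins, 2 were higher at 24 h and 2 at 48 h, none lower, and none was called at 96 h. Both were cadherins that link the tips of microvilli, Mupcdh (0.71 and 0.63 at 24 and 48 h) and Pcdh24 (0.73 and 0.90). Of 6 gap junction genes, 1 was higher and 0 lower at each of 24, 48 and 96 h. At 24 and 48 h it was the connexin gene Gja1, by 1.42 and 1.47 (limma adjusted p = 7.36e-05 and 8.69e-05), which had 0.43 at 96 h (adjusted p = 0.353). The median log2 fold changes at 24, 48 and 96 h were 0.01, 0.10 and -0.07 for the adherens junction partners, 0.34, 0.35 and 0.35 for the desmosome and envelope partners, -0.01, 0.09 and 0.04 for the repressors and regulators, and 0.05, 0.19 and 0.24 for the gap junction genes.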

How the data were processed

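Total RNA of 24 organoid samples was hybridised to Illumina BeadChips. The authors deposited mean bead signals as intensity values on a linear scale. Per the file headers each signal comes with its own detection p-value. The values were not background corrected or normalized between arrays. A further table deposited by the authors holds processed intensity values and, judged by those values, is quantile normalized without background correction. The authors' software and genome build are not given in the sources used here.

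Signals were background corrected by normexp, using the detection p-values (offset 16), quantile normalized and put on the log2 scale (limma 3.58.1, R 4.3.3). The analysis used the 15056 of 25697 probes with a detection p under 0.05 on 4 or more arrays. Each probe was fitted with 1 mean per group over all 24 arrays in limma with moderated variances (18 residual degrees of freedom), with two-sided p-values adjusted by Benjamini-Hochberg over all probes per contrast. An adjusted p under 0.05 was called. The number of arrays limits the precision.

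The members and lists were chosen with earlier results of these data known. Members called in any contrast and 9 backbone genes are described by array, the others by their range. From each other list, up to 3 called genes per time with the largest change are named. Ctnnb1, Grhl2 at 24 h, Snai1, Vim, Acta2, Tek and Laptm5 were named after their values were seen. Symbols are those of the array, and all 58 match the RefSeq annotation of GRCm38.p6. Alternatives covered background, normalization, detection filter, fitted samples, variance model, probe choice, a replicate block, the number of detected probes and leaving out arrays. Single genes left out of the text and figures are not reported here.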

Additional observations from a re-analysis of the deposited data

Results flagged for a closer look

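In 54 groups of 4 arrays, 1 array stood apart from the other 3 in 3 groups, by the ratio of its gap to the group's range. Chance gives about 1 in 20. The second Cldn15 probe was at 8.53 in irradiated replicate 2 at 24 h, with the others between 9.01 and 9.11. Cldn23 was at 7.40 in control replicate 1 at 24 h, with the others between 7.74 and 7.79. The third Dsg2 probe was at 7.49 in irradiated replicate 2 at 24 h, with the others between 7.87 and 7.93.

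The irradiation effect (log2 fold change of irradiated over control organoids) differed between times, by the test of the difference in limma, for 4 claudins. Cldn4 differed by -0.96 and Cldn23 by -0.93 between 96 and 48 h (adjusted p = 0.0365 and 0.0372). Cldn4 differed by -1.57, Cldn23 by -1.05, the second Cldn15 probe by -0.69 and Cldn3 by -0.63 between 96 and 24 h (adjusted p = 0.000267, 0.00672, 0.029 and 0.0352). Each time lay on its own chip and each effect was taken within a chip, so a shift shared by all arrays of a chip cancels. A position effect that differs between chips cannot be told apart from time in these differences.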

How the results depend on the processing

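The member probes called numbered 5 higher and 0 lower at 24 h, 5 and 1 at 48 h, and 0 and 1 at 96 h, and the effect differed for 2 between 96 and 48 h and for 4 between 96 and 24 h. Median scaling gave 2 higher and 12 lower at 24 h, 1 higher at 48 h, 0 for 96 against 48 h and 2 for 96 against 24 h. Of the 4 probes called for 96 against 24 h, only Cldn4 kept its call there. The calls of Cldn23 (-0.71, adjusted p = 0.134), Cldn3 and Cldn15 were lost, and Cldn11 was newly called (-0.99, adjusted p = 0.0365). Median scaling turned the sign of 17 of the 34 tested member probes at 24 h, 14 at 48 h and 14 at 96 h, among them at 24 h both called Cldn15 probes (-0.066 and -0.17) and the third Dsg2 probe (-0.47). Requiring detection on 12 arrays removed the Cldn11 probe and left 0 lower at 48 h and 0 at 96 h. Fitting only the arrays of the times compared gave 0 lower at 96 h, 0 for 96 against 48 h and 2 for 96 against 24 h. Trended and robust variances gave 1 for 96 against 48 h. The brightest probe per gene, which drops probes, gave 3 higher at 24 h and 3 at 48 h. A covariate for detected probes per array gave 1 lower at 24 h, ended the call of the third Cldn15 probe there and added one for Cldn11 between 96 and 24 h (-0.78, adjusted p = 0.0287). Without the 5 arrays with the fewest detected probes the counts were 2 higher at 24 h, 0 for 96 against 48 h and 1 for 96 against 24 h. Other than the removed or fewer probes and arrays named, the cause was not tested. Leaving out each array gave 4 to 6 higher and 0 to 0 lower at 24 h, 3 to 5 and 1 to 1 at 48 h, 0 to 0 and 1 to 1 at 96 h, and 0 to 0 (48 against 24 h), 0 to 2 (96 against 48 h) and 2 to 5 (96 against 24 h) differences. Of 12 pairs of irradiated and control arrays with the same replicate number, 7 correlated above 0.1 and 6 best with their own number. These correlations ran from -0.42 to 0.46. Each irradiated array was compared with the 4 control arrays of its time, 1 of them with its own number. The correlations describe the arrays and do not settle whether the replicate numbers pair the samples. A replicate block gave 5 and 0, 5 and 1, 0 and 1, and 5 differences between 96 and 24 h. Signals near background limit Cldn4 and Cldn11, whose values moved by over 1.5 times with the background correction while their calls at each time held.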
